A study of Mus musculus with 2 samples.

Results

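The genes that move iron, zinc and copper in and out of liver cells were compared between the livers of L-Lpcat3 KO mice and floxed controls. They were taken from the array annotation as the genes whose symbol begins with Slc30a, Slc39a, Slc11a, Slc31a or Steap, together with Hamp, Hamp2, Hfe, Bmp6, Tfrc, Tfr2, Fth1, Slc40a1, Cp, Heph, Mt1, Mt2, Atp7a and Atp7b. Of 18193 genes on the array 46 met this rule, through 93 probe sets. Transferrin (Trf) and the ferritin light chain (Ftl1) were also sought, but each lay only on probe sets annotated to several genes, 4 in all, so no value is given for them.

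L-Lpcat3 KO mice carried floxed Lpcat3 alleles and an Albumin-Cre transgene (Lpcat3fl/fl Albumin-Cre), and the control mice carried the floxed alleles without Cre (Lpcat3fl/fl). The albumin promoter drives Cre in hepatocytes, so other liver cells keep Lpcat3, and the deletion and the presence of Cre cannot be told apart in this design. All mice were males that began western diet at 7 weeks of age, stayed on it for 9 weeks and were 16 weeks old at harvest, after a 6 hr fast. Liver RNA of 5 mice was pooled for each genotype and put on 1 Affymetrix array, so a genotype is a single sample, no test between genotypes could be made, and the number of arrays limits the precision of every value.

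Each value is a MAS5 signal intensity on a linear scale, which measures how brightly a probe set lit up and can be compared between arrays for the same probe set, not between probe sets. Signals under 86.6, the median of all values, were raised to that floor. The ratio is L-Lpcat3 KO over control, the pools are also called KO and control, and each gene is represented by its brightest probe set. A gene with 1 side under the floor has only a bound on its ratio, given with the words at least. The pooled SD of the log2 ratio among probe sets of one gene, 0.29 over 4476 genes, stands in for measurement error below. It holds no spread between mice.

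Lpcat3, the targeted gene, had a signal of 2198 in the L-Lpcat3 KO pool and 5173 in the control pool, a log2 ratio of -1.23 on its only measured probe set. At a 2-fold limit, 332 of 12290 measured genes (2.70%) were higher and 86 (0.700%) were lower in the L-Lpcat3 KO pool. The median log2 ratio of all genes was 0.01, with 6295 above and 5994 below 0. Dividing each array by its own median moved that median to -0.10 and the counts to 235 higher and 128 lower, so small ratios depend on the scaling. All 15 hepatocyte markers found on the array were measured and none differed by 1.5-fold, where 87.1% of all measured genes differed by less. The summed signal of these markers was 378535 in the L-Lpcat3 KO pool and 412904 in the control pool. All 6 B cell markers were 2-fold higher or more.

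Iron has no regulated route out of the body, so its balance is set where it enters the blood. The liver hormone hepcidin, encoded by Hamp, binds ferroportin (Slc40a1), the only known iron exporter of mammalian cells, and removes it from the membrane. Hepatocytes raise hepcidin transcription through BMP6 and SMAD proteins when iron is plentiful, with HFE and transferrin receptor 2 as partners, and through IL-6 and STAT3 in inflammation. Cell iron itself is read by iron regulatory proteins, which bind the messages of ferritin and of transferrin receptor 1. Zinc is carried toward the cytosol by the ZIP family (Slc39a) and away from it by the ZnT family (Slc30a), and the transcription factor MTF1 turns on the metallothioneins through metal response elements when zinc rises. Copper enters through Slc31a1 and is loaded onto ceruloplasmin or pumped into bile by Atp7b.

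Promoter windows around the annotated start are shown for the hepcidin genes and for the classic MTF1 targets, as a background to the signals below. They come from the RefSeq annotation of mouse assembly GRCm38.p6 and run from 250 bases before to 50 bases after the annotated start, in the sense of the gene. Matches were sought on both strands, and a position is that of the first base of the match. The start base counts as 1, without a 0, so a match at a positive position does not lie upstream of that annotated start. Which start liver cells use was not examined, so such a match need not lie in the transcript. Capitals in the hepcidin windows mark GGCGCC, the core of the BMP response element, or the bases aligned to it, and TTCNNNGAA, a STAT binding motif. The Hamp window lies at chr7:30943980-30944279 and the Hamp2 window at chr7:30924132-30924431, both on the minus strand.
Hamp: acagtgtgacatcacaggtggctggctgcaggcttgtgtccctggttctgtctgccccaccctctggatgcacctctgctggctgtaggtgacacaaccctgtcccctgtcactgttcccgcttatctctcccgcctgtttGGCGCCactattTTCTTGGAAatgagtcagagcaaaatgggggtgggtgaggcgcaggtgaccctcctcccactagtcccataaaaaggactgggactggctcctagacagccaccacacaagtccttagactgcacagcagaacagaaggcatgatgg
Hamp2: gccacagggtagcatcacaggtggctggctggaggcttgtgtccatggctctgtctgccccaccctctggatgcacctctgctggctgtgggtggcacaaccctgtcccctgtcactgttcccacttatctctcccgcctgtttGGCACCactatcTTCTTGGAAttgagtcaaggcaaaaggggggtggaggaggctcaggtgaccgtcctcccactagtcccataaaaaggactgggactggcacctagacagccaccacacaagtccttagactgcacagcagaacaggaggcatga
The windows aligned over 297 bases, of which 276 were identical (92.9%), with 21 mismatches and 6 gap positions. The BMP core began at -109 in Hamp. In Hamp2 the aligned bases began at -106 and differed by G4A, which gives the Hamp base, its position counted from 1 at the 5′ end of the 6-base core, and the Hamp2 base, so that Hamp2 held no match. Both held the same STAT motif, beginning at -97 in Hamp and at -94 in Hamp2, and neither motif overlapped the other. GGCGCC occurred in 11.9% and TTCNNNGAA in 8.30% of all 32851 windows of this length, so either alone is a common string of letters.

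For the metallothionein genes and Slc30a1, which encodes the zinc exporter of the plasma membrane, capitals mark the core of the metal response element, TGCACNC or TGCGCNC, on either strand. These windows lie on the plus strand at chr8:94178839-94179138 (Mt1), chr8:94172368-94172667 (Mt2) and chr1:191906531-191906830 (Slc30a1).
Mt1: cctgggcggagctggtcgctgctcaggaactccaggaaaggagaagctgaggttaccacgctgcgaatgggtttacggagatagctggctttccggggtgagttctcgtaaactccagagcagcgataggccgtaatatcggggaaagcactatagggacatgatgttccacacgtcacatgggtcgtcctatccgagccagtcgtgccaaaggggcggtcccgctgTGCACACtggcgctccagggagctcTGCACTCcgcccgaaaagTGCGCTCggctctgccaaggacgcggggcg
Mt2: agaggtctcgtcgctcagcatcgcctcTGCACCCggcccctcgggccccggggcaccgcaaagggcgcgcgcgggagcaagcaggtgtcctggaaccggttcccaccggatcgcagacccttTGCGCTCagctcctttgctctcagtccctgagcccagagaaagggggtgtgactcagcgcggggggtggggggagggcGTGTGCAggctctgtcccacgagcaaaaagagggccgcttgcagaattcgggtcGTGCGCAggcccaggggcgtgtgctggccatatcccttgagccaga
Slc30a1: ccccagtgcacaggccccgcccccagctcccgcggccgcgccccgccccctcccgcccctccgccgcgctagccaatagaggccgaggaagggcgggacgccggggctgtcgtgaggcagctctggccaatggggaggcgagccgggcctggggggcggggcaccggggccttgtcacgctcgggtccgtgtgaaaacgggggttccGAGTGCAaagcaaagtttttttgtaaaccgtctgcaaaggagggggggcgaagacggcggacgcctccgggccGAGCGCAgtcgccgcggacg
Mt1 held 3 cores, beginning at -23, 3 and 21, and Mt2 held 4, beginning at -223, -128, -50 and 5. Slc30a1 held 2, at -43 and 31. None of these matches overlapped another. Of all windows 25.7% held at least 1 such core, 7.11% at least 2 and 1.97% at least 3. Among the 39 metal handling genes with a window, 20 genes had a core in at least 1 of their windows, which were 21 of 54 windows or 38.9%. A match is a description of the letters only.

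**Figure D1:**
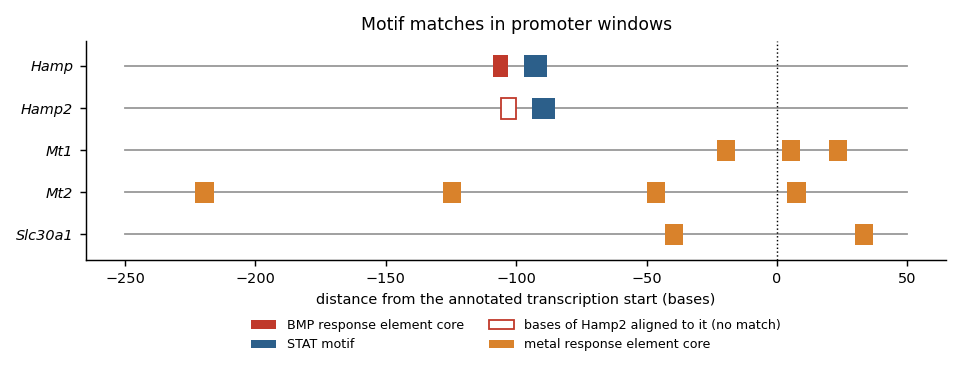
Positions of the motif matches (boxes, to scale) in the 5 printed promoter windows, as distance in bases from the annotated start (dotted line). Hamp has a filled box for the BMP response element core where Hamp2 has an open box for aligned bases that do not match, and Mt1, Mt2 and Slc30a1 carry 3, 4 and 2 metal response element cores.

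Of the 42 measured metal handling genes, 34 (81.0%) differed by less than 1.5-fold between the livers, beside 87.1% of all measured genes. Of the 46 genes, 42 were measured, 38 of them above the floor on both arrays, and Slc30a2, Slc30a8, Slc39a12 and Steap1 were below it on both. Only Slc39a5 passed 2-fold, with a higher signal in L-Lpcat3 KO liver, against 2.70% of all measured genes that were called in this direction. None was 2-fold lower, against 0.700% of all genes. At 1.5-fold, 5 genes were higher (Slc39a5, Slc30a3, Slc39a4, Slc11a1 and Slc39a6), against a background of 9.07%, and 3 were lower (Hamp2, Steap3 and Slc30a10), against 3.83%. The median log2 ratio was -0.05 and the median absolute log2 ratio 0.22, beside 0.01 and 0.21 over all measured genes. The ratio was smaller than the probe set SD for 25 of the 42 genes, and for 7683 of the 12290 genes measured in all. In the counts of this paragraph a bound was taken at its limit, and Heph is among the 25. In whole liver, fewer cells of a type and less RNA per cell cannot be told apart.

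**Figure D2:**
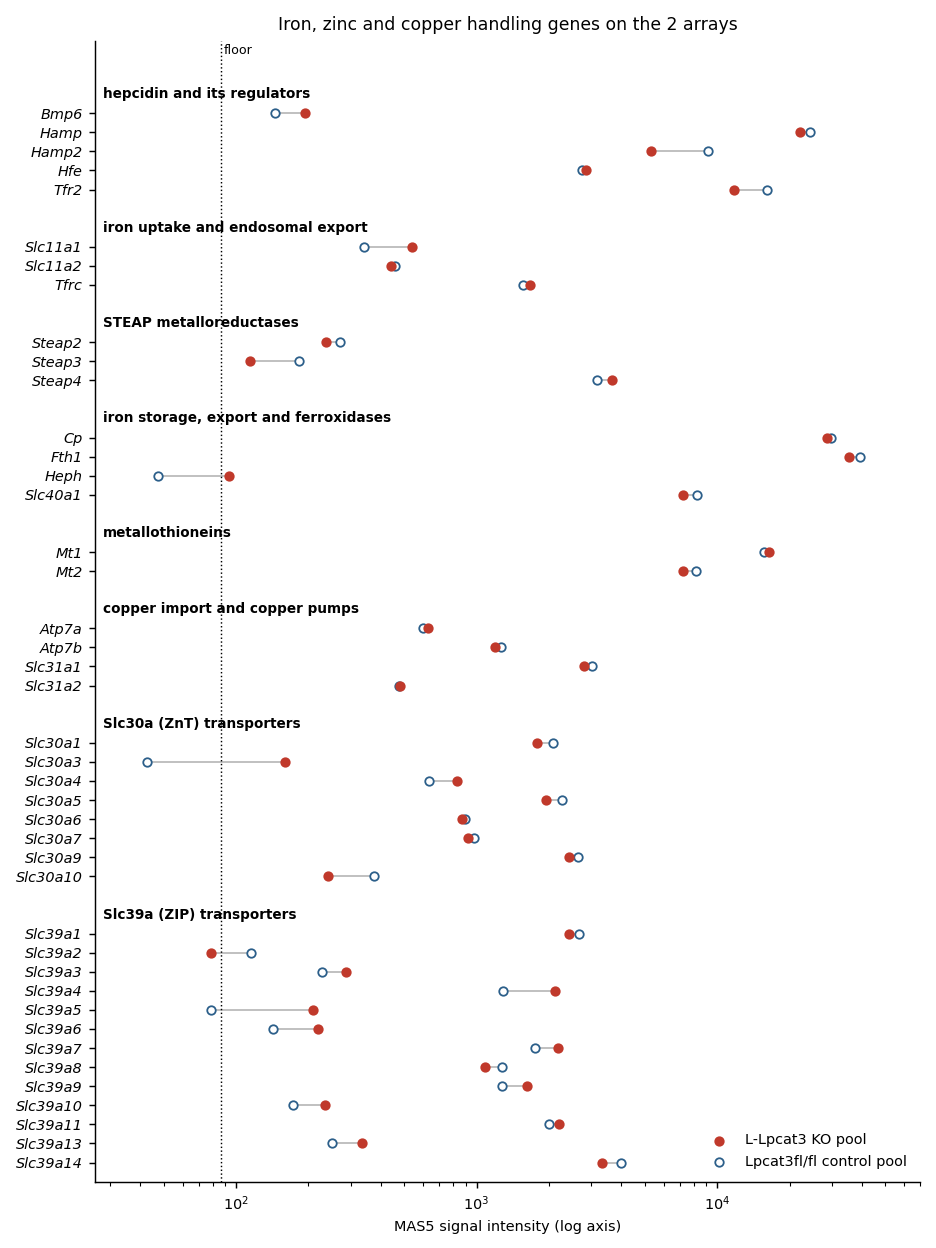
MAS5 signal intensity (log axis) of each measured gene's representative probe set in the L-Lpcat3 KO pool (filled) and the Lpcat3fl/fl control pool (open), 1 array each, grouped by role; the dotted line is the floor of 86.6. The widest gaps above the floor on both arrays are those of Hamp2, Slc39a4, Steap3, Slc11a1, Slc30a10 and Slc39a6.

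**Figure D3:**
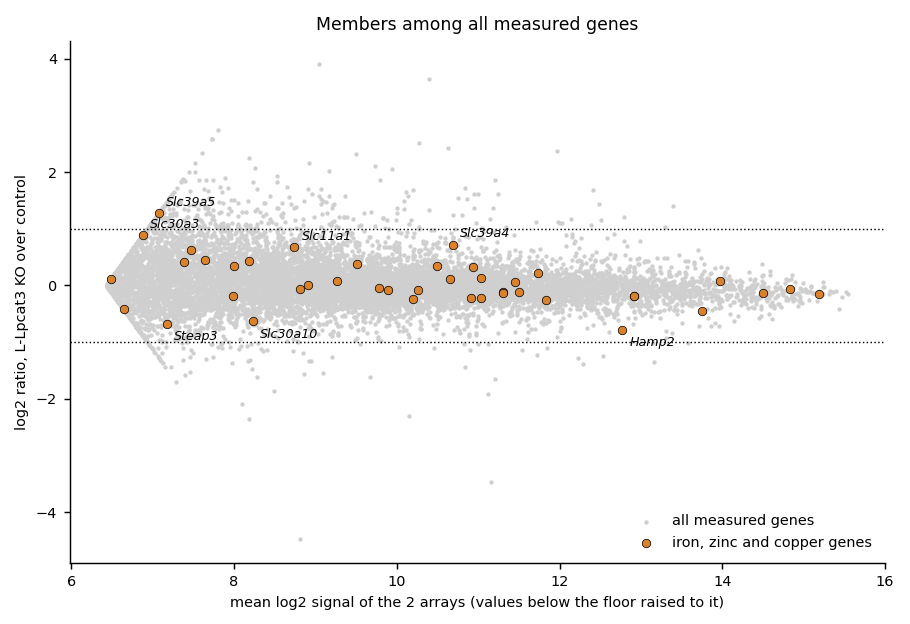
Log2 ratio (L-Lpcat3 KO over control) against mean log2 signal of both arrays, with values below the floor raised to it, for all measured genes (grey) and the 42 metal handling genes (orange); dotted lines mark 2-fold. The metal genes lie within the grey cloud, Slc39a5 alone is past 2-fold, and Hamp2 stands low among genes of its brightness.

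Hepcidin message was close to level while that of its neighbour gene was lower. Hamp had a signal of 22212 in L-Lpcat3 KO liver and 24332 in control liver, a log2 ratio of -0.13, and its second probe set, which can match several transcripts, gave 21803 in KO and 20301 in control (0.10). The sign therefore differed between the probe sets and both ratios were within their SD. Hamp2 encodes a second hepcidin-like peptide of mice whose part in iron balance is less clear. Its signal was 5332 in L-Lpcat3 KO liver and 9173 in control liver, 1.72-fold lower (log2 ratio -0.78), a difference larger than the probe set SD. This rests on 1 probe set, whose type can detect more than one transcript. The other Hamp2 probe set lay below the floor in both pools, at 36.3 in KO and 10.9 in control, so the lower Hamp2 signal has no second probe set behind it.

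The receptors that set hepcidin were mixed. Tfr2, the transferrin sensor of hepatocytes, had signals of 11738 in L-Lpcat3 KO liver and 16118 in control liver on its brightest probe set, a log2 ratio of -0.46, and 5845 in KO and 7599 in control (-0.38) on the other. Both probe sets were thus lower by more than the SD, without reaching 1.5-fold. Hfe, whose product joins the receptor complex and is lost in the common form of human hemochromatosis, gave 2864 in KO and 2754 in control (0.06) and 350 in KO and 343 in control (0.03). The ligand gene Bmp6 gave 194 in L-Lpcat3 KO liver and 145 in control liver, a log2 ratio of 0.42 on its only probe set. Bmp6 is made mainly by liver endothelial cells, and 10 of 12 endothelial markers had ratios above 0. At 2-fold 3 were higher (Lyve1, Pecam1 and Vwf), against 2.70% of all measured genes. Below 0 were Tie1 (-0.12) and Stab2 (-0.04), the latter close to level. The summed signal of the 12 markers was 10415 in the L-Lpcat3 KO pool and 7834 in the control pool. The part of these markers in the Bmp6 value was not tested.

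Further along the same pathway, 15 of 18 genes of BMP and SMAD signalling had ratios above 0, with a median log2 ratio of 0.23. Of all measured genes 6295 lay above and 5994 below 0, with a median of 0.01. Median scaling left 10 of 18 above 0 with a median of 0.11, and the floor at the 75th percentile left 11 of 14 with a median of 0.07. The endothelial markers given beside Bmp6, which include Eng of this list, had a median of 0.39, and their part in these values was not tested. The highest was Atoh8, a BMP-responsive transcription factor, at 174 in L-Lpcat3 KO liver and 33.2 in control liver, at least 2.01-fold higher. It was the only one past 2-fold, and none was 2-fold lower, against 2.70% and 0.700% of all measured genes. Id1, a direct SMAD target, gave 561 in L-Lpcat3 KO liver and 350 in control liver (0.68). Bmp4, another ligand of the family, gave 227 in KO and 145 in control (0.65). The feedback inhibitors Smad6 and Smad7, which the pathway switches on to limit itself, gave 338 in KO and 231 in control (0.55) and 391 in KO and 272 in control (0.52). Smad6, Smad7, Id1 and Atoh8 kept ratios above 0 under each of the alternatives in which they were measured, with lowest values of 0.40, 0.34, 0.47 and 0.95, the last short of 2-fold. Hjv, the BMP co-receptor hemojuvelin, gave 3929 in KO and 3797 in control (0.05), and Tmprss6, the protease that cleaves it, gave 11602 in KO and 13243 in control (-0.19) as the brightest of the list. Hamp itself, with the BMP core printed above, was at -0.13 and 0.10 on its probe sets.

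The inflammatory arm was read from acute phase genes, since IL-6 drives both. Of 20 on the array, Steap4 among them, 19 were measured, 11 above and 8 below 0, with a median of 0.03 (-0.09 under median scaling, with 7 above 0) and Il6 below the floor in both pools. Orm2, an orosomucoid, was the only one past 2-fold, at 2956 in L-Lpcat3 KO liver and 1372 in control liver (1.11), with Orm3 at 0.98. At 1.5-fold 4 were higher, with Cebpd (0.68) and Il1b (at least 1.62-fold) the others, and 1 was lower. The shares of all measured genes were 9.07% and 3.83%. Lcn2, made in acute inflammation but not in this list, was at 1.37 and is given below. Serum amyloid gene Saa4 lay on the other side at 10417 in KO and 17186 in control (-0.72). Socs3 was also lower, just short of 1.5-fold, at 186 in KO and 278 in control (-0.58), and Stat3 was at -0.11. The brightest, fibrinogen gene Fgg, gave 26307 in KO and 30503 in control (-0.21).

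Of the iron uptake genes, the one past 1.5-fold on its brightest probe set belongs to phagocytes. Slc11a1, also called Nramp1, is a divalent metal transporter of macrophage phagosomes, and its signal was 541 in L-Lpcat3 KO liver and 339 in control liver, 1.59-fold higher on its single probe set. Macrophage markers moved with it. Of 18 on the array 16 were measured, all 16 had ratios above 0, and the median log2 ratio was 1.14. At least 2-fold higher were 9 of them, against 2.70% of all measured genes. Over all measured genes 6295 lay above and 5994 below 0. The summed signal of the macrophage markers was 47033 in the L-Lpcat3 KO pool and 22154 in the control pool, while Spic and Itgam lay below the floor in both, and none was at 0. The Slc11a1 ratio of 0.67 was smaller than the marker median, and the part of these cells in it was not tested.

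**Figure D4:**
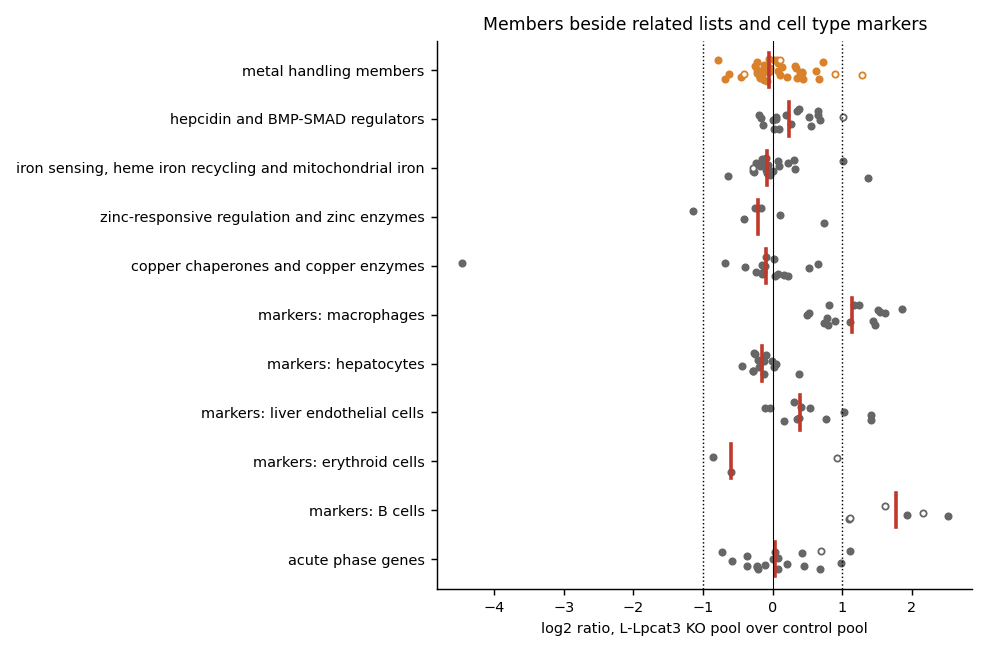
Log2 ratio (L-Lpcat3 KO over control) of each gene (points, open for bounds) of the metal handling set, the related pathway lists and the cell type markers, with list medians as red bars and dotted lines at 2-fold. The medians of the metal set, hepatocyte markers and acute phase genes are -0.05, -0.15 and 0.03, and those of macrophage and B cell markers are 1.14 and 1.78.

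Transferrin receptor 1 (Tfrc), which brings transferrin iron into most cells and whose message is held stable when cell iron is low, gave 1675 in L-Lpcat3 KO liver and 1554 in control liver (0.11). Its sign turned under median scaling, and its other probe sets, the array controls aside, were below the floor in both pools. Slc11a2, also called DMT1, carries iron out of the endosome and has 4 measured probe sets that disagreed. The brightest gave 441 in L-Lpcat3 KO liver and 459 in control liver (-0.06), the next 239 in KO and 222 in control (0.11), and another 187 in KO and 125 in control (0.57). The last gave 36.6 in L-Lpcat3 KO liver and 191 in control liver, at least 2.20-fold lower. The gene has no single direction on this array.

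The STEAP enzymes reduce ferric iron and copper so that they can cross membranes. Steap3, the endosomal reductase best known from red cell precursors, gave 114 in L-Lpcat3 KO liver and 183 in control liver, 1.60-fold lower (-0.68), with signals near the floor and its other 2 probe sets below it. Of 6 erythroid markers 3 were measured. Alas2 and Klf1 gave log2 ratios of -0.60 and -0.86, Slc4a1 was at least 1.90-fold higher, and Hba-a1, Epb42 and Gata1 lay below the floor in both pools. Their summed signal was 2041 in the L-Lpcat3 KO pool and 2939 in the control pool, and their part in the Steap3 value was not tested. Steap4, which inflammation and feeding induce, gave 3668 in KO and 3170 in control (0.21) on one probe set and 286 in KO and 306 in control (-0.10) on the other. Steap2 gave 237 in KO and 270 in control (-0.19) and, on a second probe set, 261 in KO and 194 in control (0.43), so both genes had probe sets on either side of 0.

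Of the iron storage, export and ferroxidase genes, 3 were above the floor on both arrays. Their brightest probe sets lay inside the probe set SD. The other gene, Heph, had only a bound. Fth1, the ferritin heavy chain that oxidises iron for storage, gave 35421 in L-Lpcat3 KO liver and 39285 in control liver (-0.15), and 22203 in KO and 23126 in control (-0.06) on its second probe set. Ferroportin (Slc40a1) gave 7210 in KO and 8241 in control (-0.19), and its other probe set, at 1107 in KO and 1260 in control, had the same log2 ratio to 2 decimals. Control of ferritin by iron acts mostly on translation, and that of ferroportin by hepcidin on the protein, so signals of message do not report on either protein. Ceruloplasmin (Cp), the copper ferroxidase of plasma, gave 28548 in L-Lpcat3 KO liver and 29728 in control liver (-0.06). Of its 8 probe sets, 6 lay between -0.08 and 0.00 and 2 gave 696 in KO and 493 in control (0.50) and 270 in KO and 165 in control (0.71). Hephaestin (Heph), its membrane relative known from gut, gave 93.5 in L-Lpcat3 KO liver, just above the floor, and 47.3 in control liver, at least 1.08-fold higher.

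**Figure D5:**
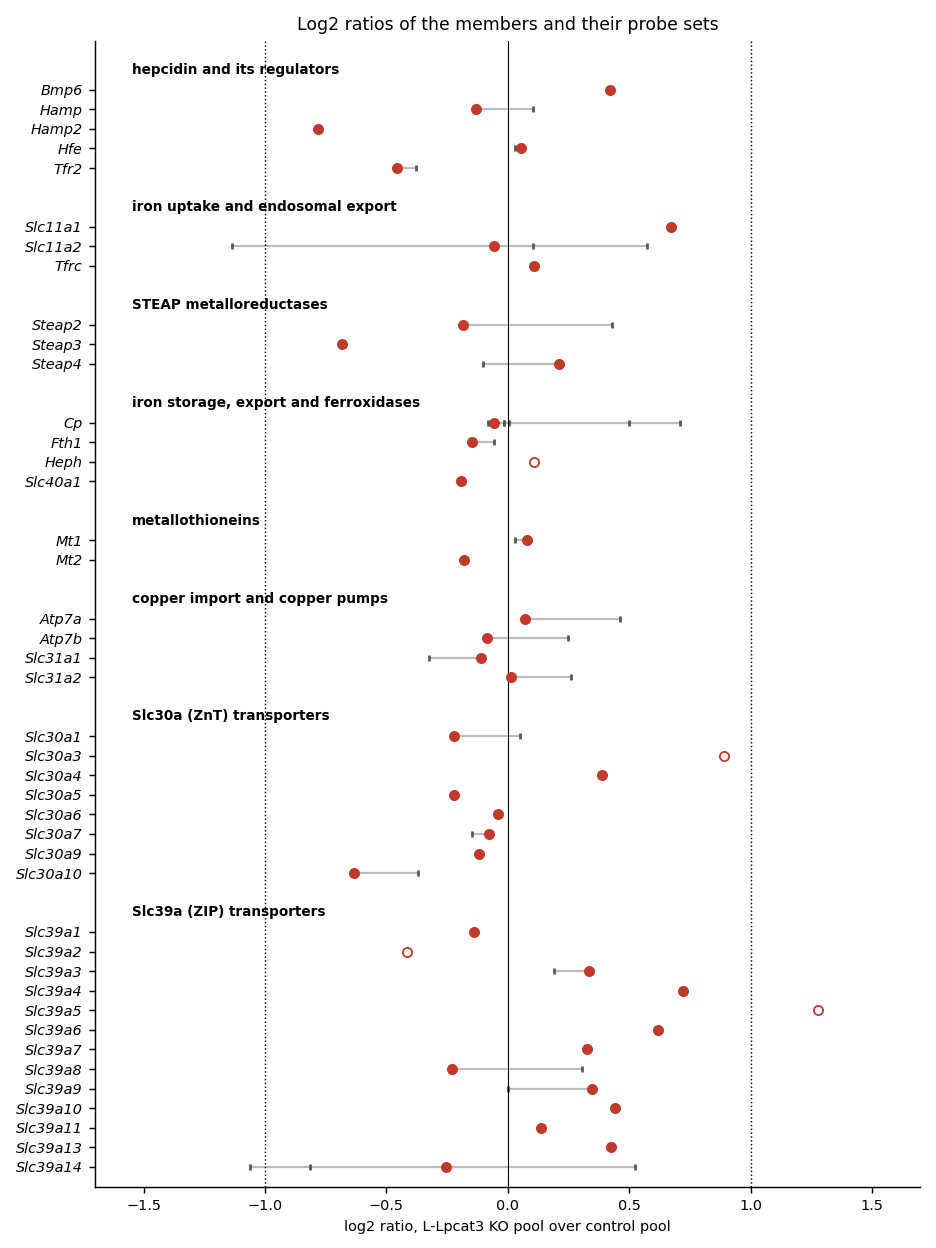
Log2 ratio (L-Lpcat3 KO over control) of each measured gene (circle: representative probe set, open where 1 side was below the floor and the ratio is a bound; ticks: the gene's other measured probe sets), with dotted lines at 2-fold. Slc11a2 and Slc39a14 have probe sets spread over both sides of 0, and 9 of 13 Slc39a circles lie right of 0 against 2 of 8 Slc30a circles.

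Beyond the transporters, 23 genes of iron sensing, heme iron recycling and mitochondrial iron were measured, with a median log2 ratio of -0.08, 8 of them above and 15 below 0. A pair of them passed 2-fold, both higher, and none was 2-fold lower, against 2.70% and 0.700% of all measured genes. Lipocalin 2 (Lcn2), which binds the iron carriers of bacteria and is made in acute inflammation, gave 3734 in L-Lpcat3 KO liver and 1443 in control liver (1.37). Heme oxygenase 1 (Hmox1), which frees iron from heme and is abundant in macrophages, gave 616 in KO and 305 in control (1.02). It fell short of 2-fold under median scaling (0.90), quantile normalization (0.98) and a pseudocount of 100 (0.82), and with the floor at the 75th percentile only a bound of 0.60 was left. The macrophage marker values given for Slc11a1 stand beside these as well, and their part was not tested. Scara5, a ferritin receptor, gave 333 in L-Lpcat3 KO liver and 518 in control liver (-0.64), and the brightest of the list, the heme carrier hemopexin (Hpx), gave 28621 in KO and 30245 in control (-0.08). Iron regulatory proteins Aco1 and Ireb2 were at -0.24 and -0.14, within the probe set SD.

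The metallothionein genes, whose products bind zinc and copper and which follow zinc through metal response elements, were level within the probe set SD. Mt1 gave 16505 in L-Lpcat3 KO liver and 15620 in control liver (0.08) on a probe set that can match several transcripts, and 377 in KO and 369 in control (0.03) on the other. Mt2 gave 7241 in KO and 8196 in control (-0.18). The sign of Mt1 turned under median scaling. Slc30a1, the third gene with printed elements, gave 1776 in L-Lpcat3 KO liver and 2073 in control liver (-0.22), and 383 in KO and 370 in control (0.05) on its other probe set. The factor itself, Mtf1, gave 490 in KO and 587 in control (-0.26).

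The medians of the zinc transporter families lay on opposite sides of 0. Of 13 measured ZIP genes, 9 had ratios above 0 and the median log2 ratio was 0.34. Of 8 measured ZnT genes, 6 had ratios below 0 and the median was -0.10. Over all measured genes 6295 lay above and 5994 below 0. Median scaling lowered the family medians to 0.22 for ZIP and -0.21 for ZnT with the same counts on each side. With the floor at the 75th percentile, 7 ZIP genes were left, 4 of them above 0, and their median was 0.14.

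Among the brightest probe sets of the ZIP genes, that of Slc39a4 had the largest difference measured above the floor on both arrays. Slc39a4 encodes ZIP4, the zinc importer whose loss causes the human zinc deficiency disease acrodermatitis enteropathica. It gave 2117 in L-Lpcat3 KO liver and 1284 in control liver, 1.65-fold higher. Its log2 ratio of 0.72 came from a single probe set and ranged between 0.61 and 0.72 under the alternatives. Slc39a5, whose product sits on the basolateral side of gut and pancreas cells, gave 210 in L-Lpcat3 KO liver and 79.0 in control liver, at least 2.42-fold higher. It was the only gene of the whole set to pass 2-fold, and its control signal was below the floor. With a pseudocount of 100 in place of the floor its log2 ratio was 0.79, short of 2-fold. Slc39a6, which encodes ZIP6, gave 219 in KO and 143 in control, 1.53-fold higher, and its other 3 probe sets were below the floor in both pools.

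The other ZIP genes above 0 were Slc39a3, Slc39a7, Slc39a9, Slc39a10, Slc39a11 and Slc39a13, with log2 ratios between 0.14 and 0.44. Slc39a7, which releases zinc from the endoplasmic reticulum, gave 2186 in L-Lpcat3 KO liver and 1743 in control liver (0.33) on a probe set that can match several transcripts. Slc39a9 gave 1620 in KO and 1273 in control (0.35), but its second measured probe set gave 115 in KO and 115 in control (0.00). Below 0 were Slc39a1 (-0.14), Slc39a2 (at least 1.33-fold lower, with signals of 78.5 in KO and 115 in control), Slc39a8 and Slc39a14. Slc39a14, or ZIP14, takes up zinc, manganese and iron not bound to transferrin and is induced by IL-6. Its brightest probe set gave 3326 in L-Lpcat3 KO liver and 3970 in control liver (-0.26), and the dimmer ones gave 128 in KO and 266 in control (-1.06), 141 in KO and 98.1 in control (0.52), and 21.0 in KO and 152 in control (at least 1.76-fold lower). Slc39a8, its closest relative, gave 1084 in KO and 1273 in control (-0.23) and, on a probe set with the control just below the floor, 107 in KO and 85.9 in control (at least 1.23-fold higher). Neither gene had 1 direction over all its probe sets.

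Among the ZnT genes, the largest differences were in opposite directions. Slc30a10, the manganese exporter of hepatocyte and gut membranes, gave 242 in L-Lpcat3 KO liver and 375 in control liver, 1.55-fold lower (-0.63), and 258 in KO and 334 in control (-0.37) on its other probe set, so both were lower by more than the SD. Slc30a3, a transporter known from synaptic vesicles, gave 161 in L-Lpcat3 KO liver and 42.8 in control liver, at least 1.85-fold higher. Slc30a4, which loads zinc into vesicles, gave 831 in KO and 635 in control (0.39). The remaining genes, Slc30a5, Slc30a6, Slc30a7 and Slc30a9, all serve inner compartments and lay between -0.22 and -0.04.

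Of 9 further zinc genes on the array 6 were measured, and the carbonic anhydrases, zinc enzymes that hydrate carbon dioxide, differed among themselves. Car1 fell, with 220 in L-Lpcat3 KO liver and 488 in control liver (-1.15), the only one past 2-fold. Of all measured genes 0.700% were 2-fold lower. Car2 gave 801 in KO and 480 in control (0.74), and the very bright Car3 gave 38495 in KO and 51076 in control (-0.41). Car1 and Car2 are also red cell enzymes, and the erythroid marker values given for Steap3 stand beside them without a test of their part. The brain and skin metallothioneins Mt3 and Mt4 were below the floor in both pools.

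Copper import and pump genes differed by less than the probe set SD on their brightest probe sets. Slc31a1, the high-affinity copper importer CTR1, gave 2790 in L-Lpcat3 KO liver and 3016 in control liver (-0.11), and 1720 in KO and 2152 in control (-0.32) on its other probe set. Slc31a2, its intracellular relative, gave 481 in KO and 477 in control (0.01) and 183 in KO and 153 in control (0.26). Atp7b, the copper pump of hepatocytes lost in Wilson disease, gave 1193 in L-Lpcat3 KO liver and 1265 in control liver (-0.08) and, on a dimmer probe set, 195 in KO and 164 in control (0.25). Atp7a, the pump of other tissues lost in Menkes disease, gave 630 in KO and 600 in control (0.07) and 128 in KO and 92.6 in control (0.46). For both pumps and for Slc31a2 the sign changed with the scaling or with the probe set.

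Of 16 copper chaperone and copper enzyme genes, all measured, 7 lay above and 9 below 0, with a median log2 ratio of -0.10. Moxd1, a relative of the copper enzyme dopamine beta-hydroxylase, fell 22.2-fold, with 95.4 in L-Lpcat3 KO liver and 2114 in control liver. It was the only gene of this list past 2-fold, against 0.700% of all measured genes that were 2-fold lower. Its log2 ratio of -4.47 was the lowest of all measured genes. The L-Lpcat3 KO signal of Moxd1 lay just above the floor, which limits what can be read from the size of this ratio. The list was chosen with earlier results of these data known, so Moxd1 being in it says nothing about copper genes as a group. The mitochondrial copper chaperone Sco1 gave 332 in KO and 533 in control (-0.68), and extracellular superoxide dismutase Sod3 gave 563 in KO and 357 in control (0.66). The brightest, cytosolic superoxide dismutase Sod1, gave 22821 in L-Lpcat3 KO liver and 25449 in control liver (-0.16), and the chaperones Atox1 and Ccs that serve the copper pumps and Sod1 were at 0.17 and -0.11.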

How the data were processed

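RNA from whole liver was measured on 2 arrays, 1 pool of 5 mice per genotype. According to the submitters' processing notes, the authors processed the arrays with MAS5 (version not given in the sources used here), and the methods name GenespringGX. The deposited values are signal intensities on a linear scale. Leaving out 2% of them at each end, their mean was 500 on either array, the target of a scaling that takes total expression as equal between livers.

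Gene names came from the platform annotation, which gave 1 symbol to 34958 of 45101 probe sets, several to 932 (not used) and none to 9211. The 3 Tfrc control probe sets were left out. Genes were called at 2-fold, with 1.5-fold and 3-fold as alternatives, and those measured reached the floor on at least 1 array. Genes at least 1.5-fold different, genes with disagreeing probe sets and a fixed set of central genes are given in full; of each other list, up to 3 of largest ratio and the brightest, with others added after their values were seen. The genes and lists were chosen with earlier results of these data known. With 1 pool per genotype there is no p-value. Alternatives were median scaling, quantile normalization, floors at the 25th and 75th percentiles, no floor, a pseudocount of 100, the mean of probe sets, and dropping probe sets of a type that detects more than one transcript. Promoter windows were matched to genes by symbol, and Heph, Slc11a2, Slc30a8, Slc39a14, Slc39a4, Slc39a6 and Slc40a1 were not matched, which left 39 of 46 genes. The counting was tested on simulated data, with known folds put only on genes well above the floor and noise smaller than the probe set SD. That test does not cover calls near the floor. Scripts ran in Python 3.11.15 with pandas 2.3.3, numpy 2.4.6 and matplotlib 3.10.9.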

Additional observations from a re-analysis of the deposited data

How the results depend on the processing

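Slc39a5 alone passed 2-fold, so only it could turn from a call in one direction to the other, and it did not. Over 8 alternatives the 42 metal handling genes gave 322 values, of which 316 moved by less than the probe set SD and 6 by more, and 33 genes kept their sign while 9 near 0 did not (Atp7a, Atp7b, Cp, Hfe, Mt1, Slc31a2, Slc39a8, Steap2 and Tfrc). The 6 were Heph (0.98) and Slc30a3 (1.91) with no floor and with the floor at the 25th percentile, Slc39a5 with a pseudocount of 100 (0.79) and Steap2 with the mean of probe sets (0.12). By their construction, lower floors let more dim signals count. A changed floor leaves brighter genes as they were, and median scaling shifts most genes by the same amount, less than the SD. Most of the 316 small moves were thus set in advance and are no sign of robustness. The number of genes at least 2-fold higher was 1, and became 2 with the floor at the 25th percentile, 3 with no floor, 0 with the floor at the 75th percentile, where 30 genes were measured, and 0 with a pseudocount of 100. It was 5 at 1.5-fold and 0 at 3-fold. The number lower was 0, and became 1 with no floor and 3 at 1.5-fold. The median log2 ratio ranged between -0.16 with median scaling and 0.06 with the mean of probe sets. Hamp2 had no value without probe sets that can match several transcripts, and otherwise ranged between -0.90 and -0.75. The alternatives for Id1, Smad6, Smad7, Atoh8, Hmox1, Lcn2 and the pathway lists were chosen after seeing the data. No paired analysis was possible because each genotype was a single pool. Leaving out a replicate was not possible for the same reason. Signals close to the floor of 86.6, such as those of Steap3, Heph, Slc30a3 and Slc39a5, bound what can be read from them.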
